A study of Mus musculus with 20 samples.

Results

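Thymic ILC2 sorted from mice given sublethal irradiation together with recombinant IL-25 (rIL-25) were compared with thymic ILC2 sorted from mice given irradiation alone. The 6 libraries that the labels assign to these conditions, 3 per group, were taken from the 20 libraries of the series, and all genes were considered. All 6 came from wild-type female mice that the series calls young, with no strain or exact age stated in the labels. Both groups received 425 rad, and tissue was taken after 3 days. The mice of 1 group were also injected with 0.3 µg of rIL-25 into the thymus. In the same experiment 3 untreated libraries and 3 libraries of mice given rIL-25 alone, again wild-type females, served here to estimate the spread between replicates and to test whether the rIL-25 effect depended on irradiation. No group was injected without rIL-25, so rIL-25 and the injection itself cannot be told apart. The labels do not say that replicates were separate animals, so the p-values measure only the spread between these samples.

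ILC2 are innate lymphocytes that answer tissue signals without an antigen receptor, and they are a source of the type 2 cytokines IL-5 and IL-13. IL-25, known as a product of tuft cells, is bound by a receptor made of the chains encoded by Il17rb and Il17ra, which signals through the adaptor Act1 (Traf3ip2) and TRAF proteins to NF-kB and mitogen-activated kinases. GATA3 is the master regulator of these cells, and STAT5, activated downstream of IL-2 and IL-7 receptors, switches on feedback inhibitors such as Cish.

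Expression was read by MARS-seq, a bulk method that counts the 3′ ends of polyadenylated RNA. Total counts were 666791, 542626 and 495079 in the irradiated libraries and 587533, 761463 and 1357518 in the libraries given both treatments. At these depths 3 counts in 1 library, used here as the floor, equal 2.21 to 6.06 CPM (counts scaled to the library total) before TMM scaling. In a bulk sample, fewer cells of a type and less RNA per cell cannot be told apart. The sorting gate is not given in the labels read here. The ILC2 genes Gata3 (190 to 290 CPM over the 6 libraries), Il17rb (159 to 243 CPM) and Il2ra (135 to 335 CPM) were present. Some other ILC2 genes were much lower in the same libraries: Icos at 1.96 to 30.5, Il1rl1 at 8.11 to 75.8 and Klrg1 at 11.4 to 69.5 CPM. Early T lineage genes were present too: Dntt, the polymerase of antigen receptor rearrangement, stood at 852 to 1377 CPM. CPM values of single genes are scaled by TMM factors, and sums over lists are not. Of 36 early T lineage markers listed, 23 were tested and 0 were called by edgeR or DESeq2, with 3 at an unadjusted p under 0.05. By limma voom 1 was called, Rag1. Their summed level was 5355 to 6384 CPM after irradiation and 6100 to 6515 CPM after both treatments. The T cell receptor constant genes were not analysed here, and Cd4 and Cd8a together with the progenitor regulator Spi1 had at most 7 counts in any of the 6 libraries. Other T lineage genes were well above the floor. Cd3d was at 657, 664 and 707 CPM after irradiation and 433, 569 and 471 CPM after both treatments. Its groups did not overlap, but it was not called (−0.46 ± 0.17 on the log2 scale, adjusted p = 0.152 by edgeR). Cd3e, Cd3g, Cd247, Lck and Lat also passed the filter.

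Across the transcriptome edgeR called 188 of 7482 genes (2.51%) at an adjusted p under 0.05. Of these, 48 (0.642%) were higher and 140 (1.87%) were lower after irradiation plus rIL-25. A change of at least 2-fold was reached by 33 (0.441%) in the higher and 123 (1.64%) in the lower direction. The fold changes of the called genes had a median of 1.18 on the log2 scale for the higher and −1.37 for the lower genes, while the median over all tested genes was −0.00. All 48 higher and 138 of the 140 lower genes had groups that did not overlap, against 687 (9.18%) of all tested genes in the higher and 773 (10.3%) in the lower direction. The number of calls depended on the libraries: it was 42 without replicate 3 of the doubly treated group, 83 and 93 without irradiated replicates 1 and 3, 125 without doubly treated replicate 1 and 358 without doubly treated replicate 2. In all 12 fits that each left out 1 library, 35 genes stayed called. At an unadjusted p under 0.05 there were 1263 genes (16.9%), the share against which the unadjusted counts of single lists are to be read. Calls, rises and falls are edgeR's unless another tool is named. DESeq2 gave an adjusted p to 6103 genes, so its 0 calls in a list can cover fewer members than edgeR tested. A gene enters the test through its counts in any group, so the counts and medians of lists describe their tested members and not all members.

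**Figure D1:**
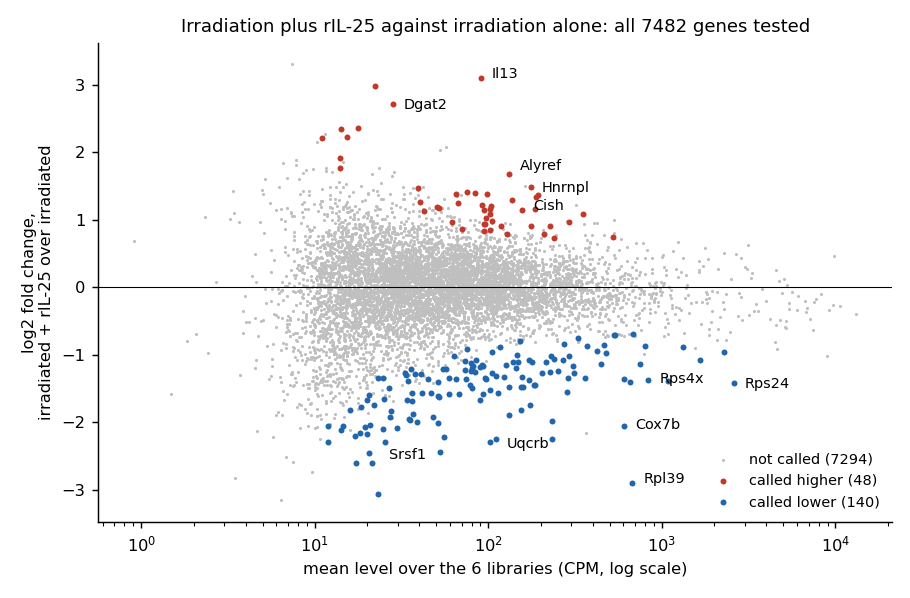
Each point is 1 of the 7482 genes tested, with its mean level over the 6 libraries (CPM, log axis) against its log2 fold change (irradiation plus rIL-25 over irradiation). Red points are the 48 genes called higher and blue points the 140 called lower; Il13 lies near the top at 3.10 and Rpl39 near the bottom at −2.90.

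The largest rise was that of Il13, the type 2 cytokine gene (chromosome 11, 53631324 to 53634702 in GRCm38, minus strand). It measured 8.11, 25.4 and 26.8 CPM in irradiated replicates 1 to 3 and 54.1, 125 and 305 CPM after both treatments. Every doubly treated library was above every irradiated one, and replicate 3 of the doubly treated group was the highest. The difference was 3.10 ± 0.69 (SE) on the log2 scale, 8.56-fold, with an adjusted p of 0.0172. Its size ranged over the alternatives from 2.21 without doubly treated replicate 3 to 3.49 without doubly treated replicate 1, on the log2 scale. The call was lost without doubly treated replicate 3 (adjusted p = 0.194), without irradiated replicate 1 or 3, and by DESeq2 (adjusted p = 0.157). The authors' deposited table gave Il13 an adjusted p of 0.222. In unirradiated mice Il13 was at 3.04, 0 and 3.63 CPM without and 1.36, 9.46 and 63.6 CPM with rIL-25. The difference between the rIL-25 effects in irradiated and unirradiated mice was −0.18 ± 1.14 (SE) on the log2 scale (adjusted p = 0.961), so wide an error that neither an equal nor a several-fold different effect was resolved.

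Other type 2 effectors had counts too low for the filter and are given as raw counts. The counts of Il5, the eosinophil growth factor, were 0, 1 and 7 after irradiation and 5, 7 and 61 after both treatments, a ratio per total count of 5.75 (exact 95% interval 2.77 to 13.8, which, like the other intervals and floors here, covers counting error only). Areg, which encodes the tissue repair factor amphiregulin, had 0 counts in all 3 irradiated libraries and 5, 1 and 52 counts after both treatments, with an exact lower 95% limit of 9.59 for the ratio per total count. Penk, the precursor of enkephalin peptides, had 0 counts after irradiation and 1, 27 and 17 after both treatments, with an exact lower 95% limit of 7.37. When no filter was applied, edgeR called both Areg (adjusted p = 0.0385) and Penk (adjusted p = 0.0291), but not Il5 (adjusted p = 0.246). Most counts of Areg and Il5 came from doubly treated replicate 3, which was also the most deeply sequenced of the 6 libraries. The cytokine gene Csf2 had 1 count in each irradiated library and 5, 5 and 18 after both treatments, a ratio of 5.88 (exact 95% interval 1.82 to 30.2). Il4 had 3, 2 and 3 against 1, 5 and 9 counts, a ratio of 1.18 (exact 95% interval 0.47 to 3.22), so no difference in Il4 was detectable at this depth.

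The list of type 2 cytokines and effectors held 21 genes, of which 13 were in the table and 6 had enough counts for the test. Of the 6, 2 were called higher (Il13 and Dgat2) and 0 lower, against 0.642% higher and 1.87% lower among all genes. DESeq2 gave an adjusted p to 3 of the 6 and called 0, and limma voom called 1 (Il13). By edgeR 3 had an unadjusted p under 0.05, and the 2 calls became 0 without irradiated replicate 1, irradiated replicate 3 or doubly treated replicate 3. Dgat2 had 3, 3 and 5 counts after irradiation, so it passed the filter through the doubly treated group where it is high, and the count for this list is no support for its direction. Dgat2, which catalyses the last step of triglyceride synthesis, measured 4.87, 5.87 and 11.1 CPM after irradiation and 94.6, 16.6 and 35.8 CPM after both treatments. The groups did not overlap, and the difference was 2.72 ± 0.73 on the log2 scale with an adjusted p of 0.0487, which 7 of the 12 omissions of 1 library brought above the threshold (adjusted p up to 0.199). Furin, a protease that matures precursor proteins, was at 21.1, 33.3 and 49.0 CPM after irradiation and 82.8, 51.3 and 83.9 CPM after both treatments, not called (adjusted p = 0.115).

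Among arginase and lipid mediator genes, edgeR, DESeq2 and limma voom called 0 of 6 tested, with 1 at an unadjusted p under 0.05 by edgeR. That gene was Arg1, the arginase of ILC2, at 16.2, 23.5 and 24.5 CPM after irradiation and 72.7, 36.0 and 145 CPM after both treatments. The groups did not overlap, yet the spread within the doubly treated group was wide (2.04 ± 0.73 on the log2 scale, adjusted p = 0.145). Klrg1, a surface receptor of activated ILC2, likewise had groups that did not overlap, with 11.4, 19.6 and 29.0 against 55.8, 34.6 and 69.5 CPM (1.47 ± 0.67 on the log2 scale, adjusted p = 0.267).

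Promoters of 2 called genes with well-known upstream factors are shown to place them beside the values: Il13 as a GATA3 target and Cish as a STAT5 target. The windows run from 250 bases before to 50 bases after the RefSeq start (GRCm38.p6), read 5′ to 3′ on the strand of the gene, with motif matches in capitals. The Il13 window is chr11:53634653-53634952 on the minus strand and holds 1 match to the GATA letters (AGATAA or AGATAG, or either with T as first base, on either strand), starting 81 bases before the start. The Cish window is chr9:107296409-107296708 on the plus strand and holds 2 matches to the STAT letters TTCNNNGAA, the first beginning at the start site and the other at base 12 of the transcript.
Il13: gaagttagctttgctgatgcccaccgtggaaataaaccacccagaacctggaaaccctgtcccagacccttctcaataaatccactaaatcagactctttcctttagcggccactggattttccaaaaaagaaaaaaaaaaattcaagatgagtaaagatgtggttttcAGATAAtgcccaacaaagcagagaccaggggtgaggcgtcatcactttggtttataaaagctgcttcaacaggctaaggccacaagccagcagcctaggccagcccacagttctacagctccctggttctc
Cish: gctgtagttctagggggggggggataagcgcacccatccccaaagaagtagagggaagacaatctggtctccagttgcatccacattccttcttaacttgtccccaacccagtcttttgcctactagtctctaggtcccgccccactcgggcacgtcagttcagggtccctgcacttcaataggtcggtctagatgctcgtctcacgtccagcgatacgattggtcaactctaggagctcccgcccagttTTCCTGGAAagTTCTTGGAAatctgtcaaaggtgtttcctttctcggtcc
Any GATA match was found in 30.2% of all 27018 promoter windows, in 17.2% of the 5789 tested genes with a window, in 19.4% of the 36 called higher genes with one and in 21.7% of the 106 called lower genes with one. A STAT match was found in 8.47% of all windows, in 6.86% of those of tested genes, in 11.1% (4 of 36) of those of called higher genes and in 7.55% of those of called lower genes. For the kB consensus, also searched, the shares were 8.18, 10.2, 8.33 and 10.4% in the same order. These matches describe letters only.

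No difference beyond the spread of the libraries was found in the receptor for IL-25 itself. Il17rb measured 206, 174 and 230 CPM after irradiation and 243, 159 and 194 CPM after both treatments, a difference of −0.03 ± 0.20 on the log2 scale (adjusted p = 0.952). Il17ra measured 258, 254 and 234 CPM against 193, 294 and 229 CPM (−0.06 ± 0.19 on the log2 scale, adjusted p = 0.905). The groups of both chains overlapped. Of the 16 tested genes for the IL-25 receptor and its signalling, edgeR, DESeq2 and limma voom called 0, with 4 at an unadjusted p under 0.05 by edgeR and a median fold change of −0.05 on the log2 scale. Members with groups that did not overlap pointed both ways: Traf2 and Stat5b were higher (0.71 ± 0.30 and 0.62 ± 0.24 on the log2 scale, adjusted p = 0.224 and 0.182), and Traf6, an adaptor of the pathway, and Mapk14 were lower (−0.86 ± 0.35 and −0.14 ± 0.19, adjusted p = 0.207 and 0.745). Il1rl1, which encodes the receptor for the related alarmin IL-33, was at 8.11, 11.7 and 75.8 CPM after irradiation and 55.8, 36.0 and 52.3 CPM after both treatments. Irradiated replicate 3 exceeded all doubly treated libraries, and the gene was not called (adjusted p = 0.685). The 14 tested alarmin and costimulatory receptors had 0 calls by the same 3 tools (2 at an unadjusted p under 0.05 by edgeR) and a median of 0.62 on the log2 scale. DESeq2 gave an adjusted p to 9 of them.

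Of 20 tested cytokine receptor and STAT5 feedback genes, 1 rose and 0 fell (median 0.19 on the log2 scale), against 0.642% higher and 1.87% lower among all genes. The gene that rose was Cish, the feedback inhibitor of STAT5 signalling, at 109, 95.9 and 86.9 CPM after irradiation and 218, 194 and 238 CPM after both treatments. All doubly treated libraries were above all irradiated ones with a narrow spread in each group, and the difference was 1.15 ± 0.31 on the log2 scale, 2.22-fold (adjusted p = 0.0459). The call was lost in 7 of the 12 omissions of 1 library (adjusted p up to 0.19). Socs1, another inhibitor of cytokine signalling, was at 162, 97.9 and 136 against 223, 177 and 218 CPM and was not called (adjusted p = 0.245). The IL-2 receptor chain Il2ra and the shared cytokine chain Il2rg were not called either (−0.49 and 0.01 on the log2 scale, adjusted p = 0.4 and 0.99).

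Among 23 transcription factors of ILC2, 1 rose and 0 fell, against 0.642% higher and 1.87% lower among all genes, and the median was 0.49 on the log2 scale. At an unadjusted p under 0.05, 10 were higher and 1 was lower. Bcl11b, a zinc finger factor that innate type 2 and T cells require, measured 76.2, 94.0 and 73.6 CPM after irradiation and 161, 158 and 143 CPM after both treatments. The groups were well apart (0.91 ± 0.20 on the log2 scale, 1.88-fold, adjusted p = 0.0143), and the call was lost without irradiated replicate 1 or 3 (adjusted p up to 0.0798). In untreated mice Bcl11b was at 146, 136 and 154 CPM, which overlapped the doubly treated libraries, and the difference of the rIL-25 effects between irradiated and unirradiated mice was called (1.06 ± 0.27 on the log2 scale, adjusted p = 0.0417). Gata3 had overlapping groups, at 190, 268 and 290 against 247, 190 and 232 CPM (−0.16 ± 0.20 on the log2 scale, adjusted p = 0.729). Id2, the inhibitor of E proteins that innate lymphocytes need, was at 105, 270 and 203 against 556, 378 and 404 CPM, groups that did not overlap, but was not called (1.22 ± 0.38 on the log2 scale, adjusted p = 0.09). The NF-kB subunit gene Nfkb1 was at 71.4, 151 and 33.4 against 181, 258 and 286 CPM (adjusted p = 0.0611), and Junb, an AP-1 subunit, at 37.3, 84.2 and 51.3 against 112, 103 and 112 CPM (adjusted p = 0.0611). Limma voom with quality weights called Bcl11b, Id2, Junb and Nfkb1. In the other direction stood Ikzf1, a zinc finger factor of lymphocytes named after its values were seen, at −0.65 ± 0.19 on the log2 scale with groups that did not overlap (adjusted p = 0.0648).

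**Figure D2:**
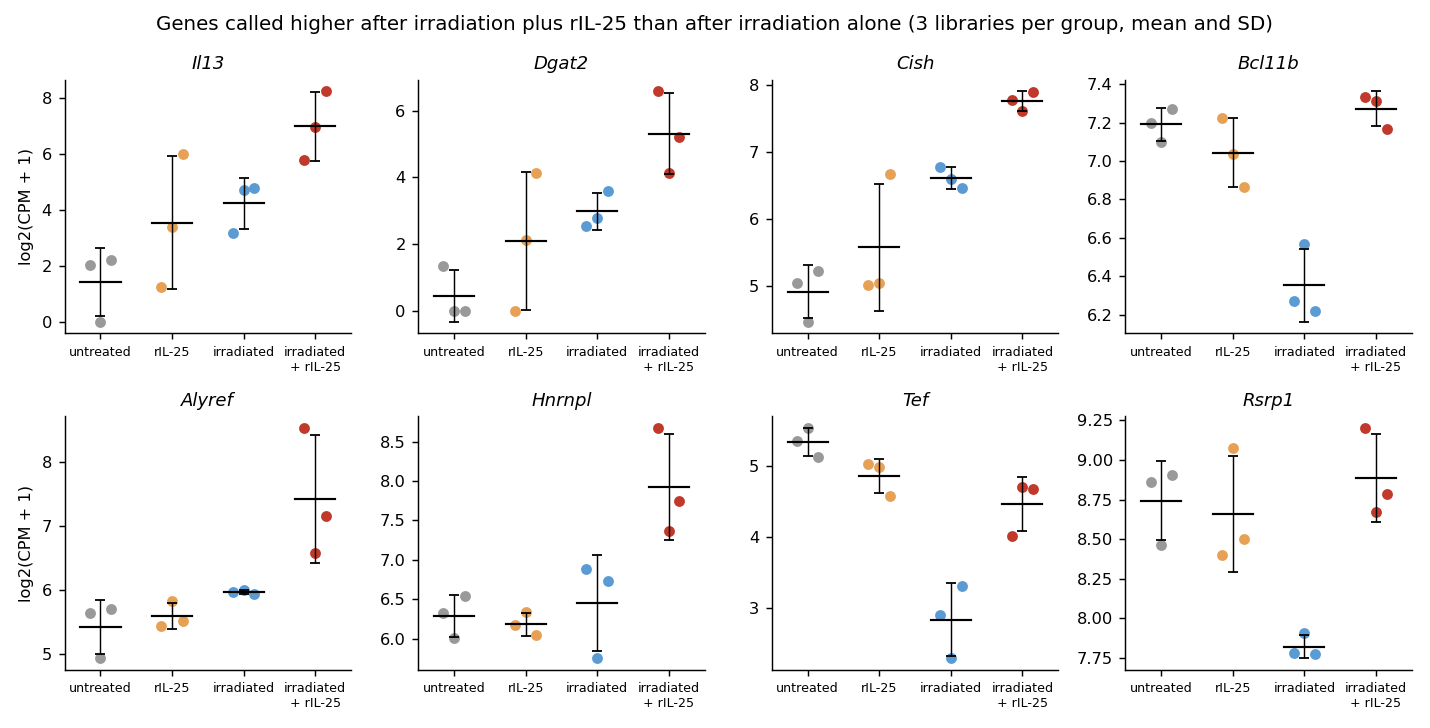
Level per library of genes that were higher after irradiation plus rIL-25, as log2(CPM + 1), in the 4 groups of 3 libraries, with the mean (bar) and SD (whiskers). In Cish the doubly treated libraries sit at 194 to 238 CPM, above the irradiated ones at 86.9 to 109 CPM.

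Of 20 tested NF-kB and TNF receptor family genes, edgeR called 0, with 5 at an unadjusted p under 0.05, and limma voom called 1 (Nfkb1). DESeq2 also called 0 but gave an adjusted p to only 12 of these genes. Their median was 0.33 on the log2 scale. The lymphotoxin gene Lta was at 14.6, 17.6 and 17.8 against 43.9, 33.2 and 36.6 CPM (1.18 ± 0.37 on the log2 scale, adjusted p = 0.0934), and its partner Ltb at 256, 204 and 406 against 534, 554 and 581 CPM (0.95 ± 0.33 on the log2 scale, adjusted p = 0.121). In both genes the groups did not overlap. Lta had 9, 9 and 8 counts after irradiation and passed the filter only with the doubly treated group, where it is high. Its values are therefore no support for a direction. Among 6 tested thymus regeneration ligands Il13 was the 1 gene called, against 0.642% of all genes called higher, and the median was 0.69 on the log2 scale. In the other activation lists edgeR, DESeq2 and limma voom called 0 of 13 inflammatory ILC2 genes (2 at an unadjusted p under 0.05 by edgeR) and 0 of 15 residency and egress genes (5 at an unadjusted p under 0.05), with medians of 0.42 and 0.29 on the log2 scale.

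Further large rises were scattered over functions. Lgmn, a lysosomal protease, measured 1.62, 13.7 and 0 CPM after irradiation and 27.0, 22.2 and 68.8 CPM after both treatments (2.98 ± 0.76 on the log2 scale, adjusted p = 0.0385, and 0.29 without doubly treated replicate 3). Cxcl10, the chemokine that binds CXCR3, went from 1.62, 13.7 and 2.23 to 16.9, 31.9 and 39.4 CPM (2.37 ± 0.62 on the log2 scale, adjusted p = 0.0435). Sorl1, a sorting receptor, rose by 2.34 ± 0.58 on the log2 scale, the lymphocyte factor Pou2f2 by 2.23 ± 0.60, the coenzyme Q binding protein gene Coq10a by 2.22 ± 0.60 and the inositol phosphatase gene Inpp1 by 1.91 ± 0.47 (adjusted p from 0.0302 to 0.0497). These 4 genes were below 9 CPM in every irradiated library, and each lost its call in at least 4 of the 12 omissions of 1 library. Lgmn, Cxcl10, Sorl1, Pou2f2 and Coq10a had at most 7 counts in any irradiated library. Like Dgat2, they passed the filter only with the doubly treated group, where they are higher than after irradiation alone. Their calls are therefore no support for a direction, and only their values are given. Cdkn2c, an inhibitor of the G1 cyclin-dependent kinases, was at 24.3, 19.6 and 17.8 against 74.3, 42.9 and 57.3 CPM (1.47 ± 0.35 on the log2 scale, adjusted p = 0.0252). Tef, a clock-controlled leucine zipper factor, was at 39.5, 45.0 and 33.9 CPM in untreated mice, at 6.49, 3.92 and 8.92 CPM after irradiation and at 15.2, 24.9 and 24.4 CPM after both treatments (1.77 ± 0.44 on the log2 scale, adjusted p = 0.0339). The calls of Cxcl10, Cdkn2c and Tef were lost in 5, 5 and 4 of the 12 omissions of 1 library.

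RNA-handling genes changed in both directions. The mRNA export adaptor Alyref was at 61.6, 62.6 and 60.2 CPM after irradiation and 368, 94.2 and 142 CPM after both treatments (1.68 ± 0.36 on the log2 scale, adjusted p = 0.0128), with doubly treated replicate 1 far above the others. The call was lost without that library (adjusted p = 0.0686) and without irradiated replicate 1 or 3. Hnrnpl, a splicing regulator, was at 117, 52.9 and 105 against 407, 163 and 214 CPM (1.49 ± 0.30 on the log2 scale, adjusted p = 0.00857) and was called in every fit that left out 1 library. Srsf1, the prototype SR splicing factor (chromosome 11, 88047373 to 88053755, plus strand), went the other way: 73.0, 104 and 86.9 CPM after irradiation and 8.45, 31.9 and 10.04 CPM after both treatments, 5.4-fold lower (−2.43 ± 0.36 on the log2 scale, adjusted p = 0.00151). The groups lay far apart, and the fall was called in every fit that left out 1 library. A list of 45 tested splicing factors and hnRNPs was added after the values were seen. Of these, 2 (4.44%) rose (Hnrnpl and Hnrnph1) and 5 (11.1%) fell (Srsf1, Hnrnpa0, Sf3b6, Snrpe and Snrpg). Among all genes the shares were 0.642% higher and 1.87% lower. The median of the list was −0.02 on the log2 scale.

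The gene with the largest fall was 1810022K09Rik, outside the naming rule as a gene without a symbol of its own and named after its values were seen, at 37.3, 62.6 and 24.5 against 1.69, 9.70 and 3.58 CPM (−3.06 on the log2 scale, adjusted p = 0.00289). It was followed by Rpl39, a small protein of the large ribosomal subunit (chromosome X, 37082520 to 37085402, minus strand). It measured 1252, 1196 and 1126 CPM after irradiation and 106, 244 and 130 CPM after both treatments, 7.45-fold lower (−2.90 ± 0.31 on the log2 scale, adjusted p = 4.23e-05). No library came near the other group. In unirradiated mice Rpl39 was at 351, 923 and 390 CPM untreated and at 1089, 1043 and 1100 CPM after rIL-25, so untreated replicate 2 lay near the levels of the rIL-25 and irradiated groups. The difference of the rIL-25 effects between irradiated and unirradiated mice was −3.85 ± 0.43 on the log2 scale (adjusted p = 5.64e-05).

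Of 74 tested ribosomal protein genes, 7 fell (9.46%, against 1.87% of all genes) and 0 rose: Rpl39, Rpl36a, Rpl31, Rpl5, Rps4x, Rps23 and Rps24. The number that fell was 3 without doubly treated replicate 3, 4 without irradiated replicate 3 and 21 without doubly treated replicate 2, and DESeq2 and limma voom called 13 and 14. The fold change was negative for 62 of the 74 with a median of −0.33 on the log2 scale, and 26 had doubly treated libraries wholly below the irradiated ones, as did 10.3% of all genes. Rps4x, a protein of the small subunit, went from 1127, 1159 and 1326 to 269, 719 and 409 CPM (−1.37 ± 0.24 on the log2 scale, adjusted p = 0.00387). Rpl36a went from 957, 1096 and 1037 to 458, 610 and 341 CPM (−1.14 ± 0.21 on the log2 scale, adjusted p = 0.00495), a call lost without doubly treated replicate 3 (adjusted p = 0.0507). The summed level of the family was 259629 to 278625 CPM after irradiation and 207433 to 262131 CPM after both treatments, so the sums overlapped while these members did not. Ribosomal protein genes have near-identical pseudogenes, and how reads were shared among copies is not stated, so single members are uncertain. Gas5 and Npm1, named after their values were seen, fell as well. Gas5, a host gene of small nucleolar RNAs, went from 798, 1030 and 767 to 313, 403 and 299 CPM (−1.36 ± 0.21 on the log2 scale, adjusted p = 0.00193), and Npm1, a nucleolar chaperone, from 1515, 1623 and 1558 to 561, 909 and 330 CPM (−1.39 ± 0.25 on the log2 scale, adjusted p = 0.00452).

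Genes of oxidative phosphorylation showed the same direction. Of 76 tested nuclear-encoded subunits 11 fell (14.5%, against 1.87% of all genes) and 0 rose, 65 had a negative fold change, and the median was −0.25 on the log2 scale. The number that fell was 5 without doubly treated replicate 3, 6 without irradiated replicate 1 or 3, 7 without doubly treated replicate 1 or untreated replicate 1, and 6 in the fit of only the 2 groups, while DESeq2 and limma voom called 14 and 13. By respiratory complex, 4 of 35 complex I genes fell (Ndufa1, Ndufa5, Ndufb2 and Ndufb4), 1 of 8 complex III genes (Uqcrb), 3 of 13 complex IV genes (Cox6b1, Cox7a2 and Cox7b) and 3 of 16 complex V genes (Atp5j, Atp5j2 and Atp5k), while 0 of 4 complex II genes were called. The summed level was 43172 to 43743 CPM after irradiation and 33062 to 37837 CPM after both treatments, without overlap. Cox7b, a subunit of cytochrome c oxidase, went from 1038, 742 and 1139 to 242, 273 and 196 CPM (−2.05 ± 0.33 on the log2 scale, adjusted p = 0.00232). Ndufa5, an accessory subunit of complex I, went from 211, 170 and 241 to 47.3, 76.2 and 45.9 CPM (−1.89 ± 0.27 on the log2 scale, adjusted p = 0.00151). In both genes each doubly treated library lay below all irradiated ones, as for Uqcrb of complex III, at 196, 247 and 105 against 18.6, 51.3 and 43.0 CPM (−2.24 ± 0.36 on the log2 scale, adjusted p = 0.00232). Slirp, which stabilises mitochondrial mRNA, fell from 92.4, 108 and 73.6 to 8.45, 36.0 and 15.1 CPM (−2.21 ± 0.36 on the log2 scale, adjusted p = 0.00232). These 4 genes kept their calls whichever 1 library was omitted. Among glycolysis genes edgeR, DESeq2 and limma voom called 0 of 14 (1 at an unadjusted p under 0.05 by edgeR), with a median of −0.08 on the log2 scale.

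**Figure D3:**
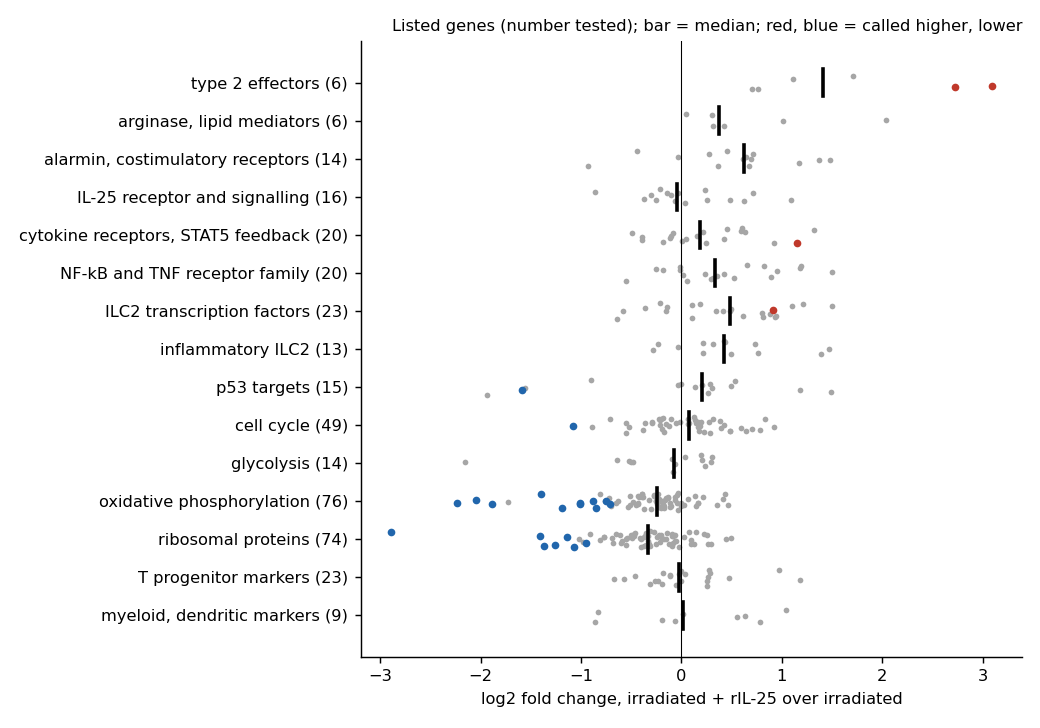
Each point is 1 tested gene of a list, placed by its log2 fold change (irradiation plus rIL-25 over irradiation); black bars are list medians, red and blue points are genes called higher and lower, and a gene can appear in several lists. The oxidative phosphorylation (11 called lower) and ribosomal protein (7 called lower) lists lie mostly left of 0, and the 6 type 2 effectors lie right of 0.

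**Figure D4:**
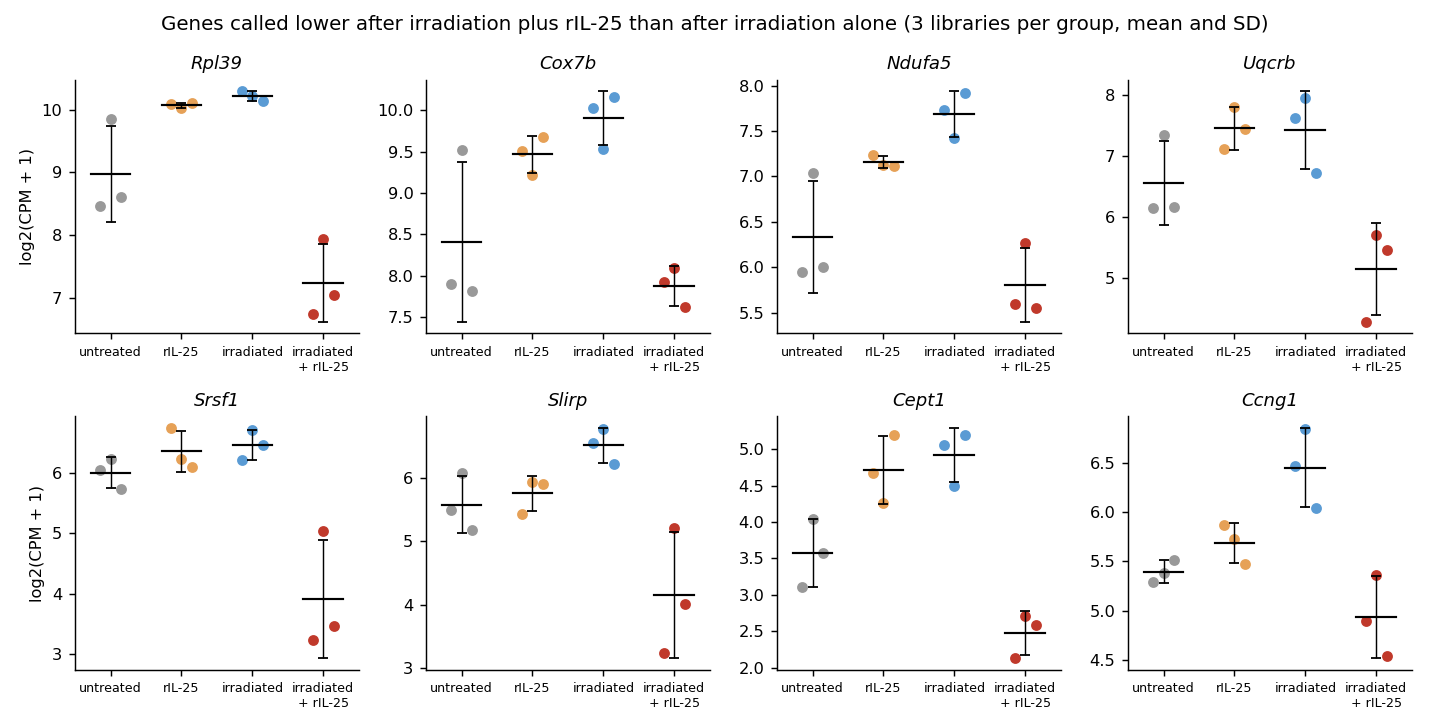
Level per library of 8 genes called lower after irradiation plus rIL-25, as log2(CPM + 1), in the 4 groups of 3 libraries, with the mean (bar) and SD (whiskers). In Rpl39, Cox7b and Ndufa5 1 untreated library lies near the rIL-25 group and the other 2 lie lower, while all 3 doubly treated libraries lie below the irradiated ones.

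A pair of other lists was added after the values were seen. Of 64 tested mitochondrial ribosomal protein genes 4 fell (6.25%) and 0 rose (median −0.05 on the log2 scale), among them Mrpl13, from 222, 217 and 232 to 92.9, 92.8 and 82.4 CPM (adjusted p = 0.00151). Of 37 proteasome subunits 4, or 10.8%, fell (Psma1, Psma2, Psma4 and Psma6) and 1 rose (Psmb2), with a median of −0.08 on the log2 scale. Both lists stand against 1.87% lower and 0.642% higher among all genes.

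The remaining large falls also crossed functions. Cept1, which makes the membrane lipids phosphatidylcholine and phosphatidylethanolamine, was at 32.4, 21.5 and 35.7 against 3.38, 5.54 and 5.02 CPM (−2.61 ± 0.47 on the log2 scale, adjusted p = 0.00405). Rif1, a factor of replication timing and DNA break repair, was at 43.8, 35.2 and 29.0 against 8.45, 9.70 and 2.15 CPM (−2.60 ± 0.48 on the log2 scale, adjusted p = 0.00495). In both of these the groups did not overlap. Falls of 2.16 to 2.45 on the log2 scale were found for the mitochondrial inner membrane gene Apool, the lipid receptor gene P2ry10, the RNA-binding factor Zc3h11a, the ankyrin repeat gene Ankrd17 and the branched-chain keto acid dehydrogenase subunit Dbt (adjusted p from 0.0114 to 0.0305). All 5, like Rif1, lost their calls in at least 1 fit with 1 library left out, in most of them the fit without doubly treated replicate 3.

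Of 15 tested p53 targets, 1 fell and 0 rose by edgeR (median 0.21 on the log2 scale), while DESeq2 called 2 and limma voom 4. By edgeR 1.87% of all genes fell and 0.642% rose. Ccng1, the cyclin G1 gene induced by p53, was at 38.0, 40.7 and 44.8 CPM in untreated mice, at 87.6, 114 and 64.6 CPM after irradiation and at 28.7, 40.2 and 22.2 CPM after both treatments. The doubly treated libraries thus lay at or below the untreated level, and the fall against irradiation alone was 1.58 ± 0.28 on the log2 scale, 3-fold (adjusted p = 0.00355), and the call held whichever 1 library was omitted. Trp53inp1 and 9030617O03Rik, also on the list, were not called by edgeR (−1.94 and −1.56 on the log2 scale, adjusted p = 0.0547 and 0.057), but limma voom called both and DESeq2 the first. Gadd45b, a stress response gene, and the kinase gene Plk3, both named after their values were seen, stood in the other direction at 1.18 ± 0.34 and 1.49 ± 0.58 on the log2 scale (adjusted p = 0.0631 and 0.179), with groups that did not overlap, and limma voom called Gadd45b. Cdkn1a, the p53-induced cell cycle inhibitor, was at 51.9, 37.2 and 51.3 against 40.5, 54.0 and 64.5 CPM, with overlapping groups (adjusted p = 0.762). Of 49 cell cycle genes 1 fell (2.04%, near the 1.87% of all genes) and 0 rose by edgeR, with a median of 0.08 on the log2 scale. The gene was Ccna2, cyclin A2, at 282, 213 and 198 against 82.8, 175 and 76.7 CPM (−1.08 ± 0.27 on the log2 scale, adjusted p = 0.0355), a call lost in 5 of the 12 omissions of 1 library (adjusted p up to 0.223). DESeq2 also called Cdc20, an activator of the anaphase-promoting complex, and Myc, both with higher doubly treated libraries and groups that did not overlap (0.59 ± 0.18 and 0.78 ± 0.22 on the log2 scale by edgeR, adjusted p = 0.087 and 0.0623). The proliferation marker Mki67 was at 268, 321 and 252 against 309, 240 and 191 CPM (adjusted p = 0.696).

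Of 13 immediate early and stress genes 1 rose and 0 fell, against 0.642% higher and 1.87% lower among all genes, with a median of 0.49 on the log2 scale. Hspa1b, an inducible heat shock protein gene, was at 38.9, 94.0 and 44.6 against 110, 151 and 130 CPM (1.15 ± 0.31 on the log2 scale, adjusted p = 0.0471). Its near-identical neighbour Hspa1a can share its reads, so the pair is uncertain, and the call was lost in 8 of the 12 omissions of 1 library. By edgeR, DESeq2 and limma voom 0 of 16 survival and death genes and 0 of 28 interferon response genes were called, with 0 and 5 at an unadjusted p under 0.05 by edgeR and medians of 0.13 and 0.04 on the log2 scale.

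The called genes were next set beside the other contrasts of the experiment, which share libraries with this one. Shared libraries tie the calls together by construction, so the overlaps below are descriptions only. In unirradiated mice rIL-25 gave 0 calls by edgeR, DESeq2 or limma voom, with 336 genes (4.49%) at an unadjusted p under 0.05 by edgeR. The difference between the rIL-25 effects in irradiated and unirradiated mice was called for 155 of 7482 genes (2.07%), 27 (0.361%) in the higher and 128 (1.71%) in the lower direction. Among the genes called against irradiation alone, that difference was called for 16 of the 48 higher and 109 of the 140 lower genes. Irradiation alone against untreated mice gave 301 calls (4.02%), 2.22% of all genes higher and 1.80% lower. Of the 140 lower genes, 21 were called higher in it and 0 lower, while 8 of the 48 higher genes were called lower and 1 higher. The irradiated libraries enter these contrasts with opposite signs, which favours opposite directions, so this split is no support for a reversal of the irradiation effect. Irradiation plus rIL-25 against untreated mice gave 668 calls (8.93%), 4.22% higher and 4.70% lower, and these held 23 of the 48 higher and 56 of the 140 lower genes in the same direction. The interaction count of 155 fell to 29 and 44 without untreated replicates 1 and 3, and rose to 347 without untreated replicate 2, which in Rpl39 and Cox7b lay apart from its group.

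Called lower genes shared features of their transcripts. The last 500 bases of their longest annotated transcript, the part that a 3′ method reads, had a median GC content of 39.2%, against 44.2% for called higher genes and 45.2% for all tested genes. Split into 10 bins by GC content, the bins from 34.4 to 42.8% held 23, 33 and 19 lower calls and the lowest bin 26, while the highest 3 bins, above 50%, held 5, 1 and 5, in bins of 703 to 800 genes. Transcript lengths had medians of 2714.5 bases for lower, 2442 for higher and 2839.5 for all tested genes. Called genes of both directions were also more abundant. The median of the mean level was 96.9 CPM for lower, 82.1 CPM for higher and 46.1 CPM for all tested genes. The shares over all genes given beside lists were not matched for level. With an offset for GC content in each library, an alternative added after the data were seen, 65 genes were called higher and 134 lower, and 167 of the 188 calls were shared. Beyond that offset, the part of GC content in the result was not tested.

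**Figure D5:**
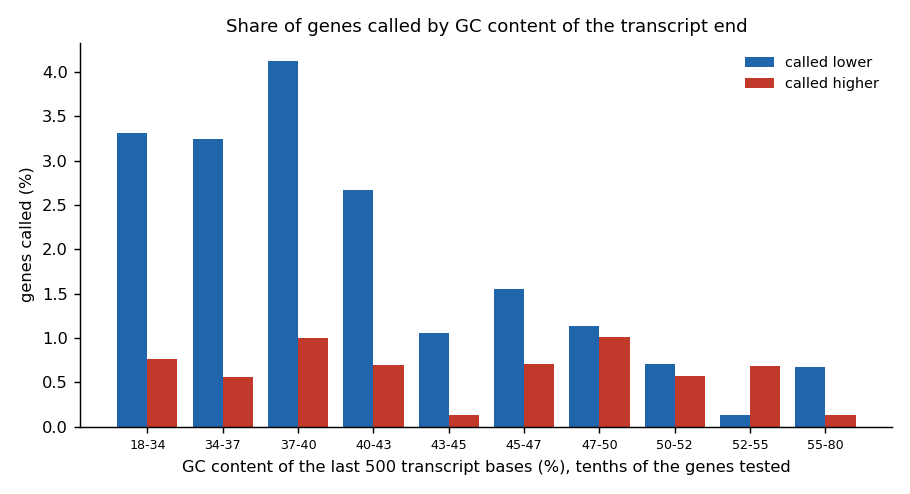
Share of tested genes called lower (blue) and higher (red) in 10 bins of the genes tested, ordered by the GC content of the last 500 transcript bases. Lower calls are most frequent below 42.8% GC, and higher calls show no such order.

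Position on the chromosomes was also unequal, a pattern noticed after the values were seen and given as a description. Of 204 tested X-linked genes 15 were lower (7.35%) and 0 higher, with a median fold change of −0.18 on the log2 scale, while chromosome 13 came next with 11 of 278 lower (3.96%). The 15 became 5 without doubly treated replicate 3, 9 without irradiated replicate 3, 10 without doubly treated replicate 1, 9 in the fit of only the 2 groups and 4 in the test against a log2 fold of 0.5. Rpl39, Rpl36a, Rps4x, Cox7b, Ndufa1, P2ry10 and Apool are among the 15. X-linked genes together made up 18024, 18068 and 18058 CPM after irradiation and 15020, 15000 and 14879 CPM after both treatments. The sums were 18472, 18703 and 18615 CPM after rIL-25 alone and 15473, 17658 and 16924 CPM in untreated mice. Without the 15 genes called lower, they were 13175, 13245 and 13044 CPM after irradiation and 13623, 12810 and 13485 CPM after both treatments. Those sums overlapped, but the 15 genes were chosen because they were called lower in these same libraries. Leaving them out therefore had to narrow the gap, and the overlap is no support for a fall confined to them. The fold change was negative for 123 of the 204 X-linked genes, against 3600 of 7238 tested genes on other chromosomes. Xist, the RNA of the inactive X chromosome, had 22 to 131 counts in each of the 12 libraries, as in the female mice named by the labels. The tested X-linked genes had a median GC content of 40.3% at the transcript end, and with the GC offset 14 of them were called lower.

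Markers of other cells were examined beside these results. Of 26 myeloid and dendritic cell markers 9 were tested, with 0 called by edgeR, DESeq2 or limma voom and 1 at an unadjusted p under 0.05, and the summed level was 403 to 547 CPM after irradiation and 543 to 559 CPM after both treatments. The macrophage genes Csf1r and Mpeg1 had at most 2 counts in any of the 6 libraries, but other members were well above the floor. Of the 9 tested, 5 had a positive and 4 a negative fold change. Ctss was at 24.3, 33.3 and 69.1 against 77.7, 76.2 and 98.2 CPM, and H2-DMa at 48.7, 78.3 and 49.0 against 94.6, 79.0 and 85.3 CPM. Both had groups that did not overlap, as did 9.18% of all genes in the higher direction (adjusted p = 0.386 and 0.225 by edgeR). Of 20 stromal, epithelial and endothelial markers 7 were tested, with 0 called by the 3 tools and 1 at an unadjusted p under 0.05, at 112 to 470 and 151 to 426 CPM in sum. Only 2 of the 7 had an adjusted p by DESeq2. B cell (2 tested), NK and ILC1 (3 tested), ILC3 (3 tested) and mast cell lists (1 tested) had 0 calls by edgeR and DESeq2, with 1 at an unadjusted p under 0.05, Ltb of the ILC3 list, and limma voom called the mast cell protease Cpa3 of the last list. Cpa3 was at 63.3, 56.8 and 29.0 CPM after irradiation and 13.5, 61.0 and 2.15 CPM after both treatments. It was lower on average with overlapping groups (−1.15 ± 0.58 on the log2 scale, adjusted p = 0.312 by edgeR). The ILC3 list summed to 260 to 430 CPM after irradiation and 570 to 662 CPM after both treatments, without overlap, and Ltb made up most of it. The part of such cells in the result was not tested. The 7 erythroid markers were not analysed here.

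The authors' deposited table, made with DESeq2 per the submitters' processing notes, called 180 of 9973 genes (1.80%) in this comparison, 46 (0.461%) higher and 134 (1.34%) lower after both treatments. Of these, 176 were tested here and 153 were called in the same direction.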

How the data were processed

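MARS-seq libraries of sorted thymic ILC2 were used. The authors deposited raw counts per gene and library, made with bcl2fastq, cutadapt, STAR 2.5.2b and HTSeq on mm10 per the submitters' processing notes; whether these count molecules or reads, and whether strand was used, is not given in the sources used here. The deposited table also held the authors' DESeq2 log2 fold changes and adjusted p-values. The table's own counts came from 9973 genes, of which 16 names had been turned into dates and are not named here.

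Counts were tested with edgeR 4.0.16 (limma 3.58.1, R 4.3.3): genes were kept by filterByExpr at a minimum count of 10 (7482 genes), libraries were scaled by TMM, and a quasi-likelihood test was fitted to all 12 libraries in 4 groups. The contrast was irradiation plus rIL-25 minus irradiation, with Benjamini-Hochberg adjustment over all tested genes and calls at an adjusted p under 0.05. Errors are standard errors. The difference of rIL-25 effects was the interaction contrast. The scripts were tested on simulated data.

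Named genes were the 12 largest rises and 12 largest falls past the threshold whose group mean reached 10 counts at least once, predicted genes left out, plus at most 3 genes per list, ranked by p, and a set panel; others are marked where named, and some genes under the rule are not reported here. Members and lists were chosen with earlier results of these data known. Ribosomal and respiratory lists were taken by symbol prefix, without kinases and paralogs that share it. Gene positions came from GENCODE M21 (9904 of 9973 genes matched), and promoters from RefSeq on GRCm38.p6.

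Alternatives were other scaling (RLE), no filter or a minimum count of 30, a replicate block, only the 2 groups compared, a test against a log2 fold of 0.5 (glmTreat), DESeq2 1.42.0, limma voom weighted by library quality, and fits omitting 1 library at a time. A GC offset and 3 gene lists (mitochondrial ribosome, proteasome, splicing) were added after the data were seen. The libraries of the knockout experiment were not used here.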

Additional observations from a re-analysis of the deposited data

Results flagged for a closer look

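The following genes were singled out because the rIL-25 effect differed between irradiated and unirradiated mice by an interaction test (edgeR, Benjamini-Hochberg adjustment over 7482 genes). They were taken only from the genes named here, not from all 155 interaction calls. Most named genes were chosen by their change in irradiated mice, which is part of this contrast. Their values are thus partly set by that choice and are no independent support. Values are the effect in irradiated mice minus that in unirradiated mice on the log2 scale.

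In the higher direction the difference was 2.235 for Tef (adjusted p = 0.0287) and 1.058 for Bcl11b (adjusted p = 0.0417). Both genes were called lower after irradiation alone than in untreated mice.

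In the lower direction the difference was −3.854 for Rpl39 (adjusted p = 5.64e-05), −1.592 for Rps4x (adjusted p = 0.0155) and −1.723 for Rpl36a (adjusted p = 0.00321) among ribosomal protein genes. Among respiratory chain genes it was −3.066 for Uqcrb (adjusted p = 0.00211), −2.631 for Ndufa5 (adjusted p = 0.00137) and −2.883 for Cox7b (adjusted p = 0.00205). For the RNA-binding genes it was −2.797 for Srsf1 (adjusted p = 0.00294), −2.381 for Slirp (adjusted p = 0.0126) and −3.006 for Zc3h11a (adjusted p = 0.0157). The cyclins stood at −1.885 for Ccng1 (adjusted p = 0.0131) and −1.594 for Ccna2 (adjusted p = 0.0248). The others were −3.764 for Cept1 (adjusted p = 0.00249), −2.675 for P2ry10 (adjusted p = 0.0226), −2.898 for Ankrd17 (adjusted p = 0.0213) and −3.132 for Dbt (adjusted p = 0.0199).

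These differences use the untreated libraries too. In several of the genes untreated replicate 2 was above the other untreated replicates, for example at 163 CPM against 69.9 and 71.4 CPM in Uqcrb and at 131 CPM against 60.8 and 62.9 CPM in Ndufa5. The part of that library in the result was not tested beyond leaving it out.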

How the results depend on the processing

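Of 33 named genes called, 10 were called in every fit that left out 1 library and 10 under every alternative that left out none, and no result reversed among the alternatives run. Leaving out 1 library gave 42 to 358 calls in all (188 with all libraries), 9 to 86 higher, 33 to 272 lower and 29 to 347 for the interaction. The count moved by over 1.5 times without irradiated replicate 1 (83), irradiated replicate 3 (93), doubly treated replicate 1 (125), doubly treated replicate 2 (358) and doubly treated replicate 3 (42). The interaction did so without untreated replicates 1 (29), 2 (347) and 3 (44), irradiated replicates 1 (80) and 3 (74), rIL-25 replicate 1 (77), and doubly treated replicates 2 (289) and 3 (50). The fit of only the 2 groups gave 125 calls, 87 of them lower. Testing against a log2 fold of 0.5 gave 30 calls, 0 higher and 30 lower, and 43 for the interaction, by construction fewer. Limma voom gave 417 interaction calls. The cause was not tested. Other scaling, filters, DESeq2 and the GC offset gave 152 to 217 calls.

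The fit with a replicate block gave 212 calls, 181 of them shared. Same-numbered libraries correlated in their deviations at 0.071, 0.116 and 0.097, so the numbers were not taken to pair samples; each library correlated best with its own number, a hint from the data, not the design.

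Depth limits genes near the floor, such as Il4, Il5 and Areg.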

Other observations

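Some abundant or marker genes varied between replicates of 1 group more than between the groups. Gapdh, a glycolytic enzyme gene, was at 897, 9.79 and 849 CPM after irradiation and 416, 6.93 and 4.30 CPM after both treatments (adjusted p = 0.346 by edgeR). In unirradiated mice Gapdh was at 3.04, 1.40 and 282 CPM without and 1.36, 2.70 and 5.09 CPM with rIL-25. Dcn, the stromal gene for decorin, was at 4.87, 166 and 6.69 CPM after irradiation and 86.2, 6.93 and 1.43 CPM after both treatments, so 1 library in each group carried most of it. Epcam, an epithelial surface gene, differed from these in that its groups did not overlap. It was at 3.24, 7.83 and 0 against 20.3, 20.8 and 16.5 CPM, without a call (adjusted p = 0.0652 by edgeR). With 2, 4 and 0 counts after irradiation, Epcam passed the filter only with the doubly treated group, where it is high. Its values are therefore no support for a direction.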
